A study of Mus musculus with 15 samples.

Results

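The MAPK phosphatases and Sprouty feedback genes were followed in 6DT1, a murine line from mammary cancer (strain background FVB/N1), with and without knockout of the chloride intracellular channel gene Clic4. The set was read by symbol from the deposited count table and held 10 genes of 55341: the phosphatase genes Dusp1, Dusp4, Dusp5, Dusp6, Dusp10 and Dusp16, the Sprouty genes Spry2 and Spry4, and the Sprouty-related genes Spred1 and Spred2. All 10 passed the filter on low counts that left 13085 genes for testing. Bulk RNA was sequenced from CLIC4-knockout cells given 1 µM H2O2 (3 libraries), untreated CLIC4-knockout cells (4), wild-type cells given 1 µM H2O2 (4) and untreated wild-type cells (4), with lysis after 24 h. The labels do not state how Clic4 was disrupted, how many knockout clones were used or whether replicates were separate cultures, so p-values measure the spread between these libraries, which may be technical.

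Growth factor receptors signal through Ras, Raf, MEK and ERK, and the stress-activated kinases JNK and p38 run in parallel cascades. Dual-specificity MAPK phosphatases end these signals by removing phosphate from both the threonine and the tyrosine of the activated kinase. Sprouty and Spred proteins act further up, between the receptor and Raf. Many of these genes are themselves transcribed in answer to ERK, which makes a negative feedback loop, and the Dusp6, Spry2 and Spry4 transcripts are widely read as markers of ERK output in mammary and other tumours.

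The libraries held 12.3 to 16.0 M counts, and the 10 genes between 134 (Dusp1) and 2809 (Spred1) counts in a library. Levels are given as CPM, the counts per M of library size after TMM scaling. Clic4 stood at 64.2 to 75.9 CPM in knockout libraries and 313 to 327 CPM in wild-type libraries, so its mRNA was reduced and not absent. Untreated wild-type replicate 9 carries a knockout entry in its genotype field against its title, had the wild-type Clic4 level (327 CPM), and held 46.5 CPM of 8 immune and blood markers in sum, against 18.8 to 20.9 CPM in the other untreated wild-type libraries. Untreated knockout replicate 4 stood apart by the chemokine Cxcl1, at 177 CPM against 651 to 779 CPM in the other untreated knockout libraries. Epithelial markers (7 genes) summed to 1063 to 1188 CPM in knockout and 1623 to 1712 CPM in wild-type libraries, with Epcam and Cdh1, which define epithelial adhesion, at most 0.144 CPM in any library although the line is labelled mammary cancer. Of the 5 epithelial markers tested, 3 were lower in knockout (Dsp, Krt18 and Jup, with Dsp at 75.8 CPM in untreated knockout and 498 CPM in untreated wild type), Krt19 was higher (156 against 54.2 CPM) and Krt8 was not called (649.5 against 646 CPM). Mesenchymal markers (6 genes, Snai2 at 0 throughout) summed to 4832 to 5275 CPM in knockout and 3187 to 3372 CPM in wild-type libraries. Of the 4 tested, 3 were called higher in knockout and 0 lower. Vim (4145 CPM in untreated knockout and 2683 CPM in untreated wild type) and Axl (759 and 463 CPM) carried the sum. Zeb1 was level, at 56.3 and 55.6 CPM, and Cdh2 stayed at or under 0.319 CPM in every library. Immune and blood markers summed to 0.267 to 1.24 CPM in knockout and 18.8 to 46.5 CPM in wild-type libraries. Ptprc stood at 0 in every knockout library, and its median was 0 in both wild-type groups too. Its highest value was 4.52 CPM in untreated and 0.0742 CPM in H2O2-treated wild-type libraries. Lcp1 alone made up 18.4 to 20.6 CPM of the 18.8 to 21.6 CPM in the wild-type libraries other than replicate 9, and was the 1 gene called of the 2 tested from this list. Fibroblast markers (6 genes, Lum at 0 throughout) summed to 11.3 to 13.9 CPM in knockout and 16.9 to 22.0 CPM in wild-type libraries. Pdgfra carried that sum, at 11.0 CPM in untreated knockout and 19.5 CPM in untreated wild type. Col1a2 and Dcn, both low, stood higher in untreated knockout (0.281 and 0.287 CPM) than in untreated wild type (0.101 and 0.155 CPM). Endothelial markers (5 genes) summed to 3.37 to 4.31 CPM in knockout and 23.1 to 25.9 CPM in wild-type libraries. Vwf carried that difference, at 1.83 CPM in untreated knockout and 22.2 CPM in untreated wild type, while Cdh5 was called higher in knockout (1.66 against 0.71 CPM). The part of these marker differences in the genotype results was not tested, and in bulk RNA fewer cells of a type cannot be told apart from less RNA per cell.

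The sequence just before the start site was taken from RefSeq (GRCm38.p6, also called mm10) for Dusp1, Dusp5, Dusp6 and Spry2. Dusp1 had the largest genotype difference in the set, and Dusp5 was the phosphatase gene that fell. The profiles of Dusp6 and Spry2 were, by a small margin, the closest of any pair in the set. Capitals mark matches, on either strand, to the cyclic AMP response element TGACGTCA, its half-site TGACG, which overlaps it, the AP-1 site TGANTCA, the ETS site CCGGAAG or the serum response CArG box. The windows are chr17:26508520-26508722 (minus strand) for Dusp1, chr19:53528895-53529108 (plus) for Dusp5, chr10:99262981-99263230 (plus) for Dusp6 and chr14:105896820-105897069 (minus) for Spry2, each ending before the RefSeq start and before any GENCODE M21 start within the 250 bases upstream of it. GENCODE M21 also has a Dusp1 start farther upstream, at 26562128, and positions below count back from the RefSeq start.
Dusp1: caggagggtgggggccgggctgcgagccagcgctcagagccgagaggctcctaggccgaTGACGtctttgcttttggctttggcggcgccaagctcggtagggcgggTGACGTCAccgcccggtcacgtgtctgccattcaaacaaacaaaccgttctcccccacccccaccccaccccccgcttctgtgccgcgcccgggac
Dusp5: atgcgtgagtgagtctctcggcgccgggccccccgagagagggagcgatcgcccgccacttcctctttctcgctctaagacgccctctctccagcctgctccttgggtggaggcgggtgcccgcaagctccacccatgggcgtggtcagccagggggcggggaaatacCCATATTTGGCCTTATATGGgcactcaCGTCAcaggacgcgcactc
Dusp6: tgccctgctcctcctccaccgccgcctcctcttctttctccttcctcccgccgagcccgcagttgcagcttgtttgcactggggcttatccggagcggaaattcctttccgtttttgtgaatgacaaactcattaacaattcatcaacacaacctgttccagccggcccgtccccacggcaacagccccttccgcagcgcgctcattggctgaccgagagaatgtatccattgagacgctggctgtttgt
Spry2: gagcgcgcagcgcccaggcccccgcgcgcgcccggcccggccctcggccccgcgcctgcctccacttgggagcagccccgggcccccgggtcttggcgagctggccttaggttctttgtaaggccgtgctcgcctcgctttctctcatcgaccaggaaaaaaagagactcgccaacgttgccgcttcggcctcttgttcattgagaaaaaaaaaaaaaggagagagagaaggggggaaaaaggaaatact

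Dusp1 held the full response element 143 to 136 bases before its RefSeq start and a further half-site 191 to 187 bases before it. Dusp5 held 2 adjoining CArG boxes, 82 to 73 and 72 to 63 bases before its start, and a half-site on the other strand at 55 to 51. No letters of Dusp6 or Spry2 matched any of the 5 motifs. Of 32544 RefSeq promoters searched over 250 bases before the start, 1.55% held the full element, 17.8% the half-site, 6.73% the AP-1 site, 6.95% the ETS site and 1.48% the CArG box. Of the 8 set genes with an entry, 1 held the full element, 4 the half-site (Dusp1, Dusp5, Dusp16 and Spred2), 1 the CArG box and 0 the AP-1 or the ETS site. Dusp4 and Spry4 had no entry. A match describes the letters only and is no measure of binding.

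Within the set, the largest differences between untreated knockout and wild-type cells were those of 3 feedback genes. Dusp1 was 2.00-fold, Dusp6 1.46-fold and Spry2 1.35-fold higher in knockout cells. In size their log2 fold changes reached or passed those of 86.4%, 71.8% and 63.4% of all tested genes. Spred1 and Dusp16 rose by less, at 1.14-fold and 1.12-fold, and Dusp5 fell, to 0.867 of the wild-type level. Dusp4, Dusp10, Spry4 and Spred2 did not pass the test. A gene was called when edgeR's quasi-likelihood test gave a Benjamini-Hochberg adjusted p under 0.05, with the adjustment made over the 13085 genes tested. By that rule 6 of the 10 genes were called, 5 higher and 1 lower, while 66.8% of all tested genes were called, 33.9% higher and 32.9% lower. The share called in the set was thus close to that of all genes. The median log2 fold change of the 10 genes was 0.12, against 0.0028 over all genes, and their median absolute log2 fold change was 0.18, against 0.30 over all genes.

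**Figure D1:**
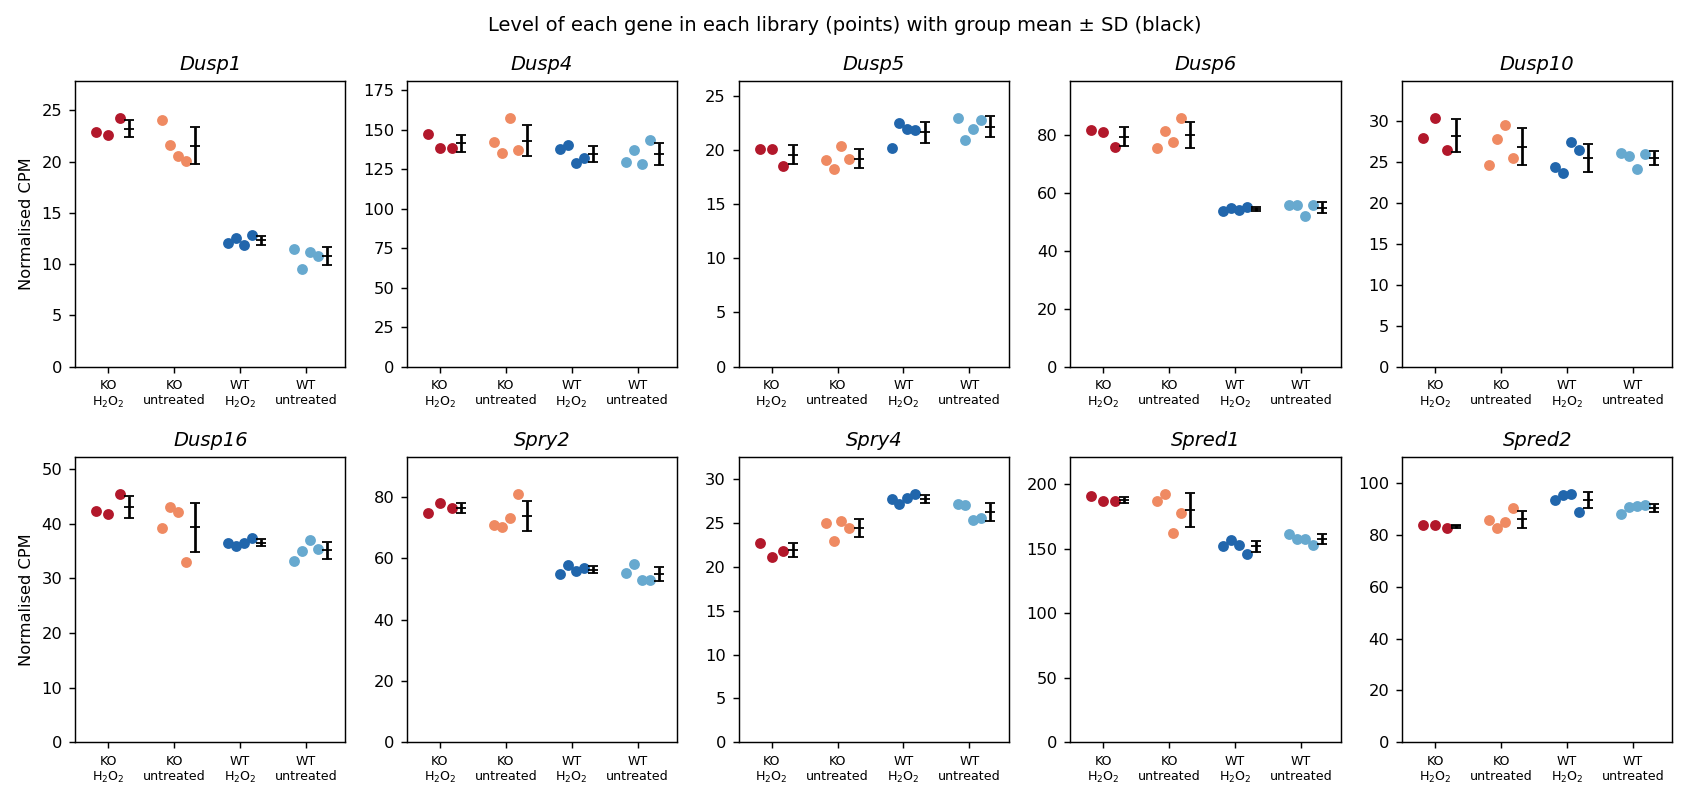
Normalised CPM of each of the 10 genes in each library (points) with the mean ± SD of the group (black), for H2O2-treated and untreated knockout cells and H2O2-treated and untreated wild-type cells. Dusp1, Dusp6, Spry2 and Spred1 sat higher in every knockout library than in any wild-type library, and Spry4 sat lower.

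Among the phosphatases that act in the nucleus, Dusp1 (chromosome 17, 26505590–26562128, minus strand, mm10) encodes an immediate early enzyme that acts on p38, JNK and ERK. It stood at 24.0, 21.6, 20.6 and 20.03 CPM in untreated knockout libraries, against 11.5, 9.49, 11.2 and 10.8 CPM in untreated wild-type libraries. All 4 knockout values lay above all 4 wild-type values with a wide gap. The log2 fold change was 1.00 (SE 0.08, 95% interval 0.84 to 1.16, adjusted p = 3.29e-12), larger in size than that of 86.4% of tested genes. Its lowest library held 134 counts, at which sampling alone gives a relative error of 8.64%. Exons of Dusp1 share 11 bases with Ergic1 on the other strand, and the strand setting of the counting is not given in the sources used here.

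Dusp5 (chromosome 19, 53529109–53542431, plus strand) encodes a nuclear phosphatase that is specific for ERK. It stood at 19.1, 18.3, 20.4 and 19.2 CPM in untreated knockout libraries, against 23.0, 20.9, 22.0 and 22.8 CPM in untreated wild-type libraries. The groups did not overlap, and knockout was lower by a log2 fold change of −0.21 (SE 0.06, adjusted p = 0.00571). An antisense gene, AC137853.2, shares 547 exon bases with Dusp5 and held 0 to 4 counts in any library. Dusp4 (chromosome 8, 34807297–34819894, plus strand), an inducible nuclear phosphatase for ERK and JNK, had 142, 135, 157 and 137 CPM in untreated knockout and 129, 137, 128 and 144 CPM in untreated wild-type libraries. Those ranges overlapped and the log2 fold change of 0.09 was not called (95% interval −0.0079 to 0.18, adjusted p = 0.0987), though it was without knockout replicate 2 (adjusted p = 0.0430) or wild-type replicate 12 (adjusted p = 0.0455).

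Dusp6 (chromosome 10, 99263231–99267489, plus strand) encodes the cytoplasmic phosphatase that is specific for ERK. Untreated knockout libraries held 75.5, 81.6, 77.7 and 85.9 CPM, against 55.8, 56.0, 52.0 and 55.9 CPM in untreated wild-type libraries. The groups lay well apart, with a log2 fold change of 0.55 (SE 0.05, 95% interval 0.45 to 0.64, adjusted p = 1.94e-11).

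The phosphatases that prefer JNK and p38 were less clear. Dusp16 (chromosome 6, 134715468–134792625, minus strand) had 39.1, 43.1, 42.0 and 32.9 CPM in untreated knockout libraries, against 33.2, 35.0, 36.9 and 35.3 CPM in untreated wild-type libraries. Replicate 4, the knockout library with low Cxcl1, lay below all wild-type libraries and the other 3 above them. The log2 fold change was 0.16 (SE 0.06, adjusted p = 0.0272), and 0.24 without replicate 4 (adjusted p = 0.000341). The call was lost with DESeq2 (adjusted p = 0.0543), with only the untreated groups in the fit (0.0655), without knockout replicate 2 (0.132) or 3 (0.118), and without wild-type replicate 9 (0.0850), 10 (0.0501) or 12 (0.0535). Dusp10 (chromosome 1, 184013302–184075636, plus strand) averaged 26.9 ± 2.26 CPM in untreated knockout and 25.5 ± 0.905 CPM in untreated wild-type cells (SD, n = 4 each), and its log2 fold change of 0.08 was not called (95% interval −0.06 to 0.22, adjusted p = 0.306).

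Of the Sprouty genes, only Spry2 was called in untreated cells. Spry2 (chromosome 14, 105891947–105896819, minus strand), an inhibitor of receptor tyrosine kinase signalling to Ras, stood at 70.8, 70.4, 73.1 and 81.0 CPM in untreated knockout libraries, against 55.3, 58.2, 53.1 and 53.1 CPM in untreated wild-type libraries. No knockout library reached down to the wild-type range, and the log2 fold change was 0.43 (SE 0.05, 95% interval 0.33 to 0.52, adjusted p = 5.18e-09). Spry4 (chromosome 18, 38586247–38601415, minus strand), which restrains the same step, had 25.0, 23.0, 25.3 and 24.4 CPM in untreated knockout and 27.2, 27.0, 25.3 and 25.5 CPM in untreated wild-type libraries. The highest knockout value lay just under the lowest wild-type value, and the log2 fold change of −0.10 was not called (95% interval −0.22 to 0.01, adjusted p = 0.108).

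The Spred proteins sit at the membrane and hold back Raf activation by Ras, Spred1 by bringing the Ras GTPase-activating protein neurofibromin there. Spred1 (chromosome 2, 117121374–117182279, plus strand) had 187, 192, 162 and 178 CPM in untreated knockout libraries, against 162, 157, 158 and 152 CPM in untreated wild-type libraries. The lowest knockout library, replicate 3 at 162.3 CPM, lay only just above the highest wild-type library, at 161.6 CPM, and the log2 fold change was 0.19 (SE 0.04, adjusted p = 0.000222). Spred2 (chromosome 11, 19924375–20024026, plus strand) averaged 86.0 ± 3.22 CPM in untreated knockout and 90.4 ± 1.54 CPM in untreated wild-type cells (SD, n = 4 each). Its log2 fold change was −0.07 (adjusted p = 0.102), and −0.10 without knockout replicate 4 (adjusted p = 0.0348), which made 2 set genes lower in place of 1.

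Counting ranges instead of tests, 6 of the 10 genes had CPM values that did not overlap between untreated knockout and untreated wild type, against 58.5% of all tested genes. Without knockout replicate 4 the test called 7 of the 10 genes, and without wild-type replicate 9 it called 5. Over all genes those fits called 8682 and 8501, against 8746 (66.8%) with every library.

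**Figure D2:**
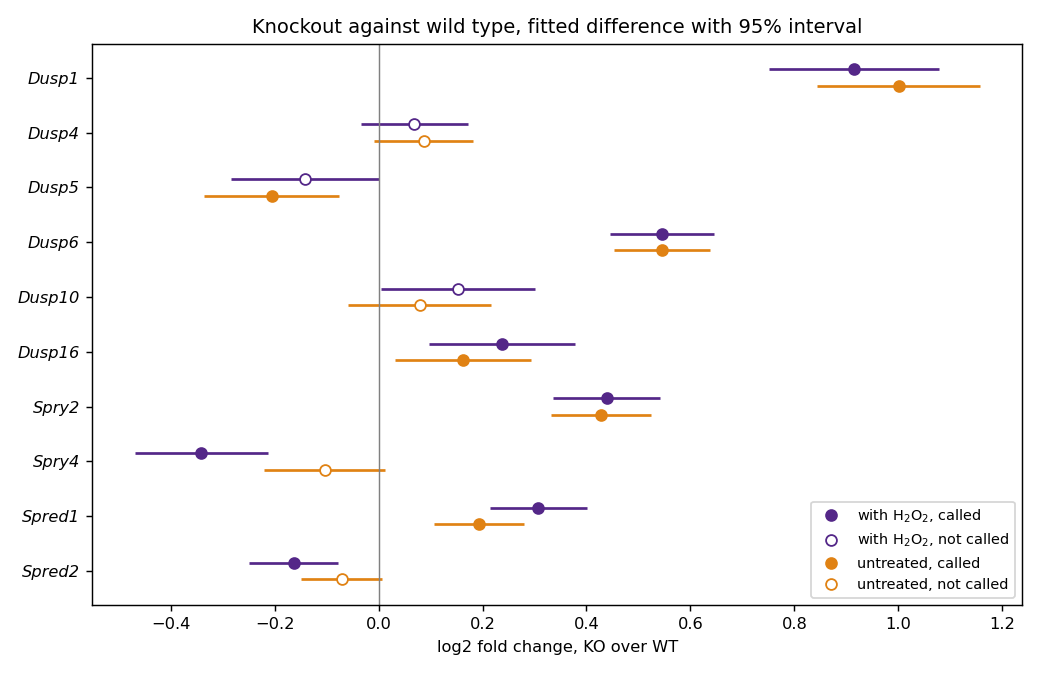
Fitted log2 fold change of knockout over wild type (x axis) for each gene with its 95% interval, with H2O2 (purple) and untreated (orange); filled points were called at adjusted p under 0.05. Dusp1, Dusp6 and Spry2 lie well right of 0 under both conditions, while Spry4 lies at −0.34 with H2O2 and −0.10 untreated.

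The same comparison in cells given H2O2 uses other libraries of both genotypes. With H2O2, knockout cells again held more Dusp1, Dusp6, Spry2, Spred1 and Dusp16 than wild-type cells, and less Spry4 and Spred2. Of the 10 genes 7 were called, 5 higher and 2 lower, against 65.4% of all tested genes (33% higher and 32.4% lower). The ranges did not overlap for 8 genes, against 66.4% of all tested genes. The median log2 fold change of the set was 0.20, against 0 over all genes, and the median absolute log2 fold change 0.27, against 0.31.

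Dusp1 stood at 22.9, 22.6 and 24.2 CPM in treated knockout libraries, against 12.0, 12.5, 11.9 and 12.8 CPM in treated wild-type libraries, with no overlap and a log2 fold change of 0.91 (SE 0.08, adjusted p = 6.49e-11). Dusp6 stood at 81.7, 81.2 and 75.8 CPM in treated knockout and 53.8, 55.0, 54.1 and 55.3 CPM in treated wild-type libraries, again with no overlap (log2 0.55, SE 0.05, adjusted p = 1.08e-10).

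Spry2 had 74.9, 77.9 and 76.3 CPM in treated knockout libraries, against 55.0, 57.9, 55.8 and 56.7 CPM in treated wild-type libraries (log2 0.44, SE 0.05, adjusted p = 1.43e-08). Spry4 had 22.7, 21.1 and 21.8 CPM in treated knockout and 27.8, 27.1, 27.8 and 28.3 CPM in treated wild-type libraries. All 3 knockout values lay below all 4 wild-type values, and the fall in knockout was −0.34 on the log2 scale (SE 0.06, 95% interval −0.47 to −0.21, adjusted p = 2.43e-05), opposite in direction to Spry2.

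Spred1 had 190.4, 187 and 187 CPM in treated knockout libraries and 152, 157, 153 and 146 CPM in treated wild-type libraries, 1.24-fold higher (log2 0.31, SE 0.05, adjusted p = 1.13e-06). Spred2 had 83.6, 83.6 and 82.7 CPM in treated knockout libraries and 93.3, 95.2, 95.8 and 88.9 CPM in treated wild-type libraries, and was lower by a log2 fold change of −0.16 (SE 0.04, adjusted p = 0.00116). The Spred pair thus moved in opposite directions, as the Sprouty pair did.

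Dusp16 had 42.2, 41.7 and 45.4 CPM in treated knockout libraries and 36.4, 35.9, 36.4 and 37.4 CPM in treated wild-type libraries, where the ranges did not overlap (log2 0.24, SE 0.07, adjusted p = 0.00336). Dusp5 ran from 18.6 to 20.1 CPM in treated knockout and from 20.2 to 22.5 CPM in treated wild-type libraries, a gap too small to be called (log2 −0.14, 95% interval −0.28 to 0.0012, adjusted p = 0.0756), though it was called without treated wild-type replicate 13 (adjusted p = 0.0372). Dusp10 (log2 0.15, adjusted p = 0.0656) was called without treated knockout replicate 8 (adjusted p = 0.0371) or without treated wild-type replicate 15 (adjusted p = 0.0354). Dusp4 was not called (log2 0.07, adjusted p = 0.231).

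Did 24 h of H2O2 move these genes in either genotype? None of the 10 was called in knockout or in wild-type cells by edgeR, nor by DESeq2, and 1 gene in each had an unadjusted p under 0.05. Over all genes edgeR called 0.0535% in knockout cells (7 genes, all lower with H2O2) and 0.0153% in wild-type cells (2 genes, 0.00764% higher and 0.00764% lower). Leaving out 1 library gave 0 to 21 genes in knockout and 0 to 13 in wild-type cells. The largest fitted difference of the set in knockout cells was that of Spry4, with 22.7, 21.1 and 21.8 CPM in treated and 25.0, 23.0, 25.3 and 24.4 CPM in untreated libraries. These ranges did not overlap, which held for 7.71% of all tested genes, and the log2 fold change was −0.16 (SE 0.06, unadjusted p = 0.0188, adjusted p = 0.522). In wild-type cells it was that of Dusp1, with 12.0, 12.5, 11.9 and 12.8 CPM in treated and 11.5, 9.49, 11.2 and 10.8 CPM in untreated libraries. Here too the ranges did not overlap, which held for 3.81% of all tested genes, and the log2 fold change was 0.20 (SE 0.08, unadjusted p = 0.0240, adjusted p = 0.715).

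For the other genes the fitted H2O2 effects were small, and their 95% intervals bound them. In knockout cells Dusp1 had a log2 fold change of 0.11 (−0.05 to 0.26), Dusp16 of 0.13 (−0.0077 to 0.27), Dusp10 of 0.07 (−0.08 to 0.22), Spred1 of 0.06 (−0.03 to 0.16), Spry2 of 0.05 (−0.05 to 0.15) and Spred2 of −0.05 (−0.13 to 0.04). Dusp4, Dusp5 and Dusp6 lay between −0.02 and 0.03. In wild-type cells Spry4 had a log2 fold change of 0.08 (−0.03 to 0.19), Dusp16 of 0.06 (−0.08 to 0.19), Spred1 of −0.05 (−0.14 to 0.04) and Spred2 of 0.05 (−0.03 to 0.12), while Spry2, Dusp4, Dusp5, Dusp6 and Dusp10 lay between −0.04 and 0.04. The interval that reached farthest from 0 was that of Dusp1 in wild-type cells, at 0.36.

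**Figure D3:**
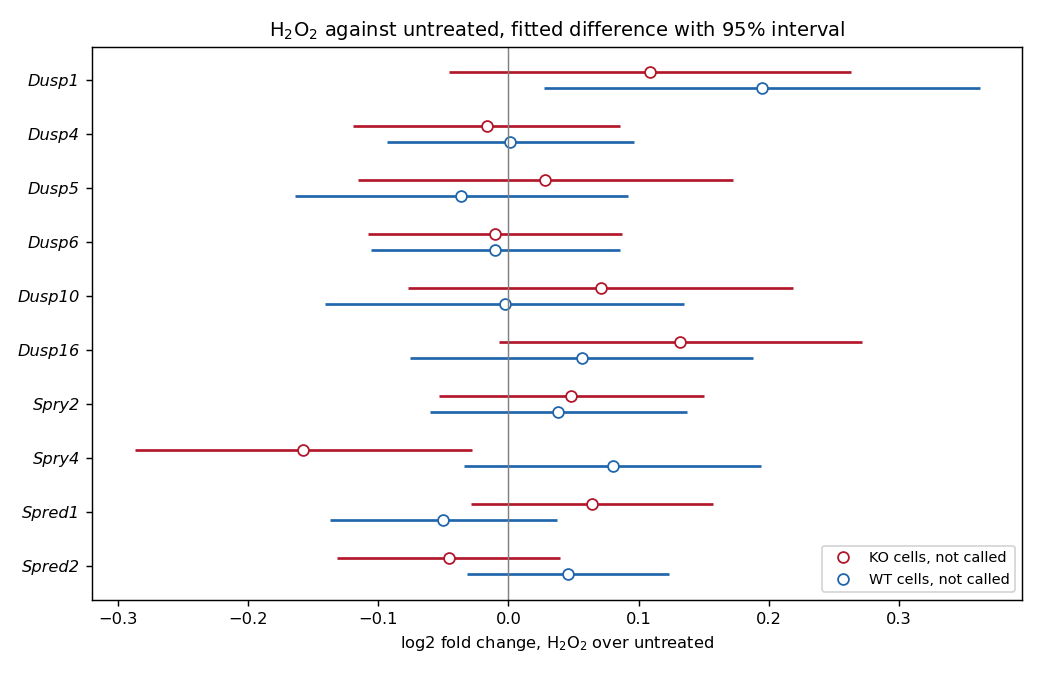
Fitted log2 fold change of H2O2 over untreated (x axis) for each gene with its 95% interval, in knockout (red) and wild-type cells (blue). No point is filled because no gene was called; the intervals of Spry4 in knockout cells and of Dusp1 in wild-type cells lie to one side of 0.

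Whether the effect of H2O2 differed between genotypes was tested by the interaction term. edgeR called 0 of the 10 genes and 0% of all genes, DESeq2 called 0 of the 10, and 1 of them, Spry4, had an unadjusted p under 0.05. Its H2O2 effect was −0.16 in knockout and 0.08 in wild-type cells, a difference of −0.24 (SE 0.08, 95% interval −0.41 to −0.07, unadjusted p = 0.00871, adjusted p = 0.715). The genotype difference of Spry4, called with H2O2 and not without, was therefore not shown to differ between the conditions. The next in size was Spred1, at 0.11 (−0.01 to 0.24, adjusted p = 0.839).

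How do the levels of the genes compare with each other? On the deposited RPKM scale (counts per kilobase per M), Spred1 was the highest, followed by Spred2, Dusp4, Spry2 and Dusp6 in all 4 groups, with no overlap between neighbours in that order. Spred1 averaged 83.5 ± 5.96 RPKM in untreated knockout and 74.7 ± 2.00 RPKM in untreated wild-type cells, and Dusp6 averaged 20.1 ± 1.2 RPKM in untreated knockout and 14.1 ± 0.518 RPKM in untreated wild-type cells (SD, n = 4 each). The remaining 5 genes lay between 3.51 and 7.47 RPKM in group means. In untreated knockout cells the order ran Dusp1, Dusp10, Dusp16, Dusp5 and Spry4, where the ranges of Dusp1, Dusp10 and Dusp16 each overlapped that of the next gene and Dusp5 lay clear of Spry4. Dusp1 averaged 6.89 ± 0.555 RPKM in untreated knockout cells, where it ranked 6, and 3.51 ± 0.283 RPKM in untreated wild-type cells, where it ranked 10.

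The order between genes depends on the gene lengths behind the deposited values. These work out at 2123 bases for Spred1 and 1429 for Spred2, while their summed exons in GENCODE M21 are 6784 and 4619 bases. With GENCODE lengths, an alternative chosen after seeing the data, Dusp4 came first, at 51.4 ± 3.59 counts per kilobase per M in untreated knockout and 49.5 ± 2.58 in untreated wild-type cells. Spry2 came next, at 34.9 ± 2.45 in untreated knockout and 26.5 ± 1.26 in untreated wild-type cells, and then Spred1, at 26.1 ± 1.86 in untreated knockout and 23.4 ± 0.63 in untreated wild-type cells (SD, n = 4 each). Dusp1 then ranked 8 in untreated knockout and 10 in untreated wild-type cells.

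**Figure D4:**
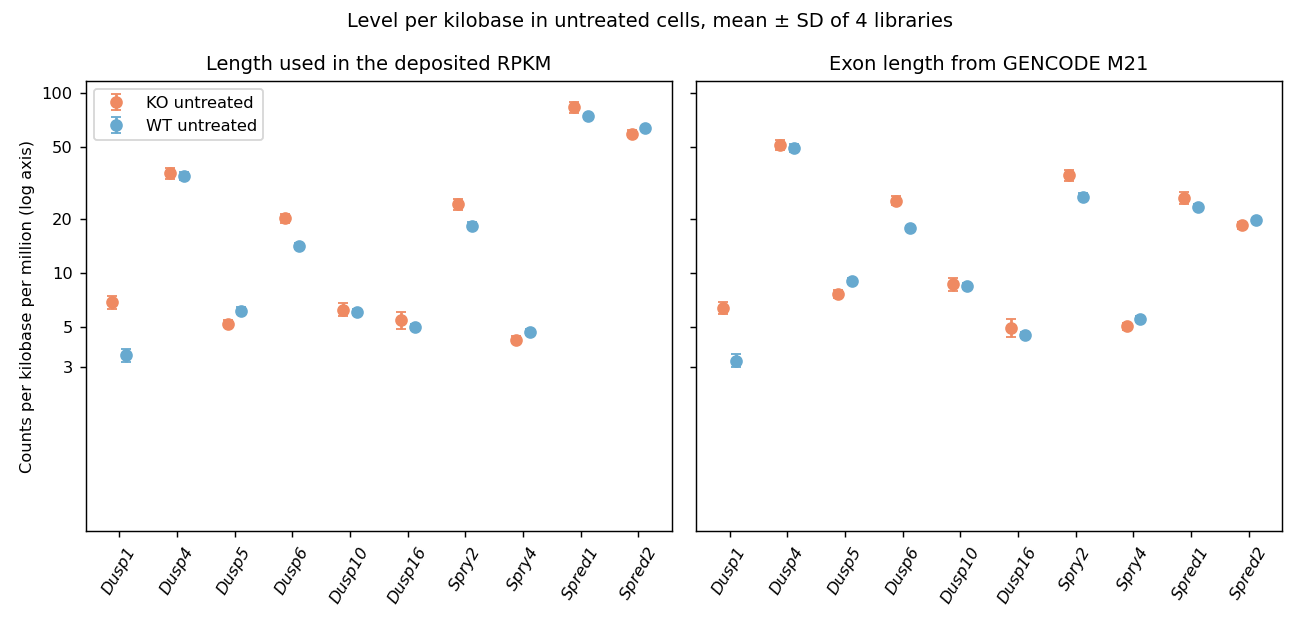
Mean level per kilobase ± SD (log axis) of each gene in untreated knockout (orange) and untreated wild-type cells (blue, 4 libraries each), with the length behind the deposited RPKM (left) and the exon length from GENCODE M21 (right). Spred1 and Spred2 lead on the left, and Dusp4 and Spry2 lead on the right.

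Other genes of the same families and of the cascades they act on were taken from lists, whose counts stand against the 65.4% of all tested genes called with H2O2 (33% higher, 32.4% lower) and the 66.8% called untreated (33.9% higher, 32.9% lower). Of 6 other family genes tested, 0 were called higher and 2 lower in untreated knockout cells, a smaller share than over all genes, and 1 higher and 2 lower with H2O2. Spry1, a Sprouty gene, had 0 counts in all knockout libraries, against 6, 10, 11 and 8 counts in H2O2-treated and 6, 10, 13 and 11 counts in untreated wild-type libraries. Against a floor of 3 counts over the group knockout was at least 8.10-fold lower with H2O2 and at least 13.2-fold lower untreated, which covers counting error only. Dusp7, a cytoplasmic ERK phosphatase, averaged 30.2 ± 2.55 CPM in untreated knockout and 36.2 ± 1.05 CPM in untreated wild-type cells (log2 −0.26, adjusted p = 0.000363), and was also lower with H2O2 (log2 −0.17, adjusted p = 0.0239). Dusp8, a phosphatase for JNK and p38, averaged 15.1 ± 3.07 CPM in untreated knockout and 12.9 ± 0.210 CPM in untreated wild-type cells (log2 0.23, adjusted p = 0.0526). Knockout replicate 4, the library with low Cxcl1, held 11.1 CPM, below the untreated wild-type range of 12.6 to 13.0 CPM. The other untreated knockout libraries lay above that range, at 14.2 to 17.7 CPM. Dusp8 was called higher with H2O2 (log2 0.27, adjusted p = 0.0285). Dusp2, Dusp9 and Spred3 were not called in either condition, with log2 fold changes of 0.05, −0.06 and −0.12 with H2O2 and 0.14, 0.06 and 0.01 untreated. Spry3 was not analysed here.

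In the ERK cascade, 8 of 21 genes were called higher and 6 lower in untreated knockout cells, with a median log2 fold change of −0.01, a share called close to that of all genes. The scaffold Gab1 averaged 90.9 ± 1.83 CPM in untreated knockout and 61.5 ± 1.57 CPM in untreated wild-type cells (log2 0.56, adjusted p = 9.16e-12). Mapk3, which encodes ERK1, averaged 190.5 ± 9.26 CPM in untreated knockout and 129 ± 5.41 CPM in untreated wild-type cells (log2 0.56, adjusted p = 2.39e-12). The kinase Braf averaged 72.0 ± 3.36 CPM in untreated knockout and 50.8 ± 1.46 CPM in untreated wild-type cells (SD, n = 4 each, log2 0.50, adjusted p = 1.15e-09). The 6 lower genes were Araf (log2 −0.36), Map2k2 (−0.26), Map2k1 (−0.25), Hras (−0.23), Rasa1 (−0.20) and Sos2 (−0.20). With H2O2 the counts were again 8 higher and 6 lower, with Nf1 called lower in place of Sos2. The log2 fold changes of Gab1, Mapk3 and Braf were then 0.49, 0.60 and 0.57, all called, and that of Araf was −0.35.

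Of 15 tested genes of the JNK and p38 cascades, 9 were called higher and 4 lower in untreated knockout cells, and 6 and 3 with H2O2. The share called was above that of all genes untreated (66.8%) and below it with H2O2 (65.4%). Mapkapk3, a kinase activated by p38, had a log2 fold change of 0.49 with H2O2 and 0.50 untreated, and Mapk8, which encodes JNK1, of 0.37 with H2O2 and 0.47 untreated, all called. Map2k6, a kinase that activates p38, had a log2 fold change of 0.33 with H2O2 (adjusted p = 0.130) and 0.40 untreated (adjusted p = 0.0463). Its untreated ranges overlapped, at 4.05 to 6.81 CPM in knockout and 2.85 to 5.00 CPM in wild-type libraries. The highest value was that of knockout replicate 4, the library with low Cxcl1. Other genes of this list stood lower in untreated knockout libraries. Map3k5 ran from 26.3 to 31.0 CPM in untreated knockout and from 35.8 to 37.5 CPM in untreated wild-type libraries. For Map2k4 these ranges were 62.0 to 67.8 and 72.8 to 84.0 CPM.

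Among 13 tested genes known as transcriptional targets of ERK, 8 were called higher and 3 lower in untreated knockout cells, with a median log2 fold change of 0.23, and 7 and 3 with H2O2, a larger share than over all genes (65.4% with H2O2 and 66.8% untreated), though whether the list differs from other genes was not tested. The immediate early transcription factor Egr1 had 12, 18, 17 and 13 counts in untreated knockout libraries, against 4, 5, 3 and 2 counts in untreated wild-type libraries (log2 2.07, SE 0.37, adjusted p = 1.48e-05). Fos was as low, with 10, 25, 20 and 16 counts in untreated knockout and 7, 5, 7 and 8 counts in untreated wild-type libraries (log2 1.39, SE 0.35, adjusted p = 0.00102). Neither gene overlapped between the groups, though both had few counts in every library. Ier3, an immediate early gene, was abundant, with 313, 257, 299 and 154 CPM in untreated knockout libraries, against 78.7, 62.7, 72.2 and 75.5 CPM in untreated wild-type libraries (log2 1.82, SE 0.19, adjusted p = 4.07e-06). Its low knockout value belongs to replicate 4, the library with low Cxcl1. With H2O2 the log2 fold changes of Egr1, Ier3 and Fos were 2.45, 1.79 and 1.84, all called.

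**Figure D5:**
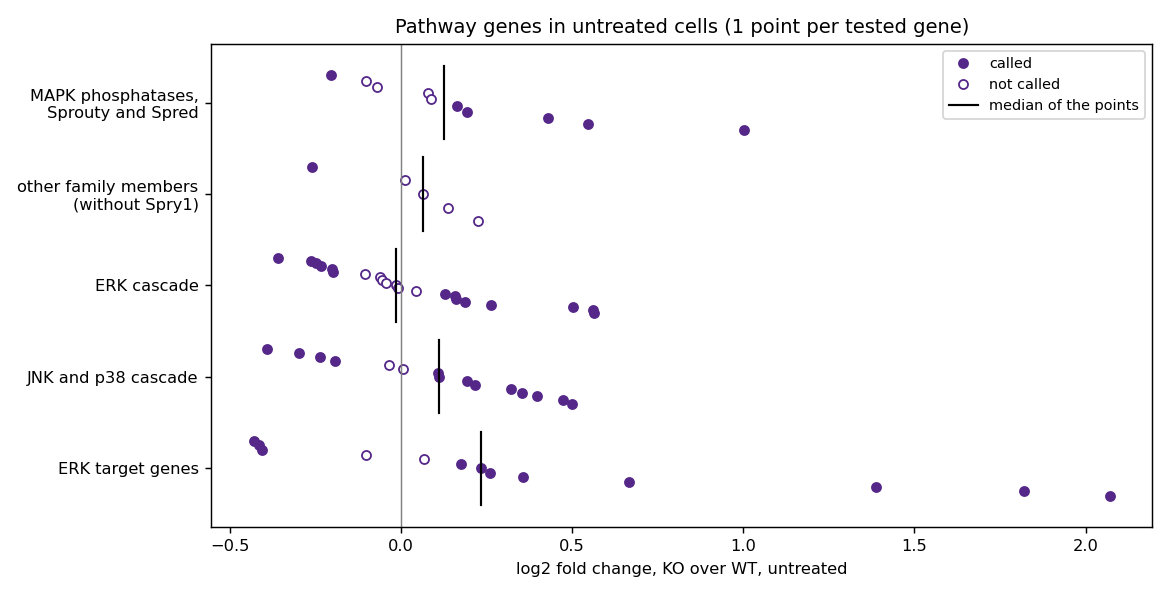
Log2 fold change of knockout over wild type in untreated cells (x axis), 1 point per tested gene, for the 10 genes and 4 lists of related genes; filled points were called and the black line is the median of the points. Each list has called genes on both sides of 0 except the other family members, whose only called point lies at −0.26; Spry1, at 0 counts in knockout cells, is left out.

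In none of these 4 lists did edgeR call a gene for H2O2 in either genotype or for the interaction; DESeq2 was not read for the lists. At an unadjusted p under 0.05 there was 1 gene in knockout cells, the ERK target Ccnd1 (log2 −0.14, adjusted p = 0.580), 0 in wild-type cells and 0 for the interaction. Its untreated knockout values ran from 231.5 to 297 CPM with a median of only 236 CPM. The treated knockout values ran from 221.7 to 230.6 CPM.

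Profiles over the 15 libraries were compared as log2 CPM centred on each gene's mean, by the root mean square distance to the 10195 candidate genes whose mean reached 5 CPM. Nearest to Dusp1 were Kif22 (distance 0.06), a chromosome-binding kinesin, and Hjurp (0.06), the chaperone of the centromeric histone, which were higher in untreated knockout cells by 0.99 and 0.95 on the log2 scale. Nearest to Dusp6 were Stk24 and Cyth3 (0.05 each), and to Spry2 Ubqln4 (0.05) and Rnf6 (0.06). The nearest to Spry4 were Lurap1l and Lamtor1 (0.05 each). Their log2 fold changes were −0.35 and −0.31 with H2O2 and −0.04 and −0.16 untreated. Both were picked for a profile like that of Spry4, so their likeness to it adds no evidence on its H2O2 effect. Near Spred1 lay Zdhhc20 (0.04), and near Spred2 Jak1 (0.03) and Sh3pxd2a (0.04). For the 4 phosphatases left, they were Pxn and Map7d1 (Dusp4, 0.04 each), Pramef8 and Adipor1 (Dusp5, 0.05 each), Mpnd and Rcc2 (Dusp10, 0.05 and 0.06), and Clk3 and Ier5 (Dusp16, 0.06 and 0.07). Within the set the closest pair was Dusp6 and Spry2 (0.0785), nearly level with Dusp5 and Spred2 (0.0790). These distances describe the libraries, which share the genotype difference, and carry no test. They need reading beside each gene's own SD of log2 CPM over the libraries. That SD was 0.08 for Dusp4 and 0.07 for Spred2, which varied little, against 0.50 for Dusp1.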

How the data were processed

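Per the submitters' processing notes, the authors used cutadapt, STAR and RSEM with build mm10; versions, roles, annotation and strand setting are not given in the sources used here. The deposited table of expected counts per gene symbol holds whole numbers and was used as it is. The deposited RPKM values were used only to compare levels between genes. Symbols were placed with GENCODE M21, and promoters come from RefSeq (GRCm38.p6). Libraries were grouped by title. Genes were filtered with filterByExpr (13085 left, holding 99.917% of counts), scaled by TMM and fitted in edgeR 4.0.16 (R 4.3.3, limma 3.58.1) with 1 mean per group, a robust quasi-likelihood test and 11 residual degrees of freedom. The common biological coefficient of variation was 4.958%. Contrasts were the genotype difference with and without H2O2, the H2O2 effect in each genotype and their difference, with Benjamini-Hochberg adjustment over all genes. Standard errors of log2 fold changes are approximate. The fit was also run on simulated data with a common spread for all genes and few changed genes. That setting differs from these data, so it cannot give their error rate. Alternatives were DESeq2 1.42.0, RLE size factors, no filter, only the groups compared, and leaving out each of the 15 libraries. The genes and lists were chosen with earlier results of these data known. From each list the text names the 3 called genes with the largest untreated genotype difference, all tested genes of the other family list, and for each set gene the 2 nearest profiles, of which 1 is not reported here. A replicate 6 was not analysed here.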

Additional observations from a re-analysis of the deposited data

Results flagged for a closer look

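In 3 of the 30 combinations of gene and group with 4 libraries, 1 library lay far from the other 3 by Dixon's criterion, which flags about 1 group in 20 by chance. Dusp6 stood at 52.0 CPM in untreated wild-type replicate 11, against 55.8 to 56.0 CPM in the other untreated wild-type libraries. Dusp10 was low in the same library, at 24.1 CPM against 25.8 to 26.1 CPM. Spred2 stood at 88.1 CPM in untreated wild-type replicate 9, the library with blood markers, against 90.9 to 91.5 CPM in the others. In each of these groups the other 3 libraries lay unusually close together.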

How the results depend on the processing

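In the genotype comparisons 0 of 190 fold changes of set genes reversed with H2O2 and 0 of 190 untreated, over 19 alternatives, and the median log2 fold change of all genes was at most 0.0070 in size. With H2O2, 0 values lost and 3 gained a call, and untreated, 7 lost and 3 gained one. All 7 losses were those of Dusp16, and the gains those of Dusp4, Dusp5, Dusp10 and Spred2, each given with its value above. The number of set genes lower in untreated knockout cells was 1 to 2 when 1 library was left out. Set genes called numbered 7 to 8 with H2O2 and 5 to 7 untreated when 1 library was left out. Over all genes the calls then numbered 7965 to 8639 with H2O2 and 8399 to 8773 untreated.

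For H2O2 in knockout cells, where edgeR called 7 genes, DESeq2 called 38, no filter gave 27, and leaving out 1 library 0 to 21. In wild-type cells, where it called 2, these were 9, 12 and 0 to 13, and 0 with only the groups compared. For the interaction, with 0 called, they were 7, 5 and 0 to 3. No set gene was called in any of these. The interaction of Dusp6, at −3.7e-06, was 0.0017 with DESeq2, 0.0016 with RLE size factors and 0.0046 with no filter. Effects near 0 changed sign when 1 library was left out, with these ranges on the log2 scale. In knockout cells the H2O2 effect of Dusp4 ran from −0.0462 to 0.0351 and that of Dusp6 from −0.0369 to 0.0249, and in wild-type cells that of Dusp4 from −0.0247 to 0.0302 and that of Dusp10 from −0.0380 to 0.0324. For the interaction, Dusp4 ran from −0.0504 to 0.0364, Dusp6 from −0.0269 to 0.0351, Dusp16 from −0.0021 to 0.122 and Spry2 from −0.0185 to 0.0573. The cause of these changes was not tested.

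No paired analysis was possible because the groups share no replicate numbers. Depth limits the low genes most: at the lowest counts of Dusp1 and Dusp5, 134 and 227, sampling alone gives relative errors of 8.64% and 6.64%, against 2.22% for Spred1.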
